A study of Caenorhabditis elegans with 9 samples.

Results

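The 6 genes described here serve haem uptake and iron balance in Caenorhabditis elegans: the haem transporter genes hrg-4 and hrg-1, the iron importer gene smf-3, the cytosolic aconitase gene aco-1, and the ferritin genes ftn-2 and ftn-1. They were chosen by name from the 20389 genes listed in the deposited files, with the levels in all genotypes already known, so their own values are given as a description. Whole larvae of the L2 stage were sequenced in 3 genotypes, with 3 libraries each and 9 in all. The first was homozygous hsf-1(ok600), which lacks part of the gene for heat shock factor 1, picked as offspring without GFP of the strain OG576, in which hsf-1(ok600) is kept over the balancer hT2[bli-4(e937) let-?(q782) qIs48], so that the mothers still carried an intact copy. The second was hsf-1(ok600); rmSi1[hsf-1::gfp] (strain AM1061), which carries the same deletion and an hsf-1::gfp transgene (promoter not given in the sources used here); it is called the transgenic line below. The third was wild type (N2). Every library was made from a pool of 500 larvae taken 30 h after an egg lay of 2 h, and the stated temperature was 20 °C.

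C. elegans cannot make haem and takes it up from its food. HRG-4 brings haem into the intestinal cell across the apical membrane, and HRG-1 moves it out of endosomal and lysosome-related compartments, and the RNA of both is known to increase when haem is scarce. Iron enters the intestine through SMF-3, a transporter of the DMT1 family that also carries manganese, and is stored in ferritin shells built from FTN-1 and FTN-2. ACO-1 is the worm relative of the mammalian iron regulatory protein IRP1. The worm ferritin RNAs lack the element that IRP1 binds in mammals, and iron acts on ftn-1 and smf-3 by transcription, through intestinal GATA factors and the hypoxia factor HIF-1.

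Each gene has 1 FPKM value (fragments per kilobase of transcript, scaled to the total of mapped fragments) per genotype. The authors combined the 3 libraries in it, so the spread among them and the depth are unknown. The range in brackets after a value is its deposited interval, of unstated level. hsf-1 itself (Y53C10A.12) was listed at 21.4 FPKM (6.52 to 36.4) in the mutant, 69.3 (29.4 to 109) in the transgenic line and 25.3 (7.62 to 43.1) in wild type. A value over the whole gene counts RNA of the undeleted part and of the transgene, so it does not check the deletion. All 25 marker genes of intestine, hypodermis, muscle, pharynx, neurons and germ line reached 1 FPKM or more in each of the genotypes.

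In the mutant, hrg-4, smf-3 and aco-1 were listed lower than in wild type, while hrg-1, ftn-2 and ftn-1 lay within 2-fold of it. In the transgenic line, hrg-4 and aco-1 were near the wild-type level and smf-3 was not. Of the 6 genes, 2 (hrg-4 and aco-1) were called lower in the mutant at a q of at most 0.05 in the authors' deposited table and 0 were called higher. Every q given here is theirs for the mutant against wild type. Over all 12615 genes tested, 2.9% were called lower and 2.93% higher. At an unadjusted p under 0.05 in the authors' deposited table, 3 of the 6 were lower, smf-3 being the third, and 0 were higher, where 8.99% of all tested genes were lower and 10.5% higher. Since these levels were known when the genes were chosen, nothing is read from the counts.

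**Figure D1:**
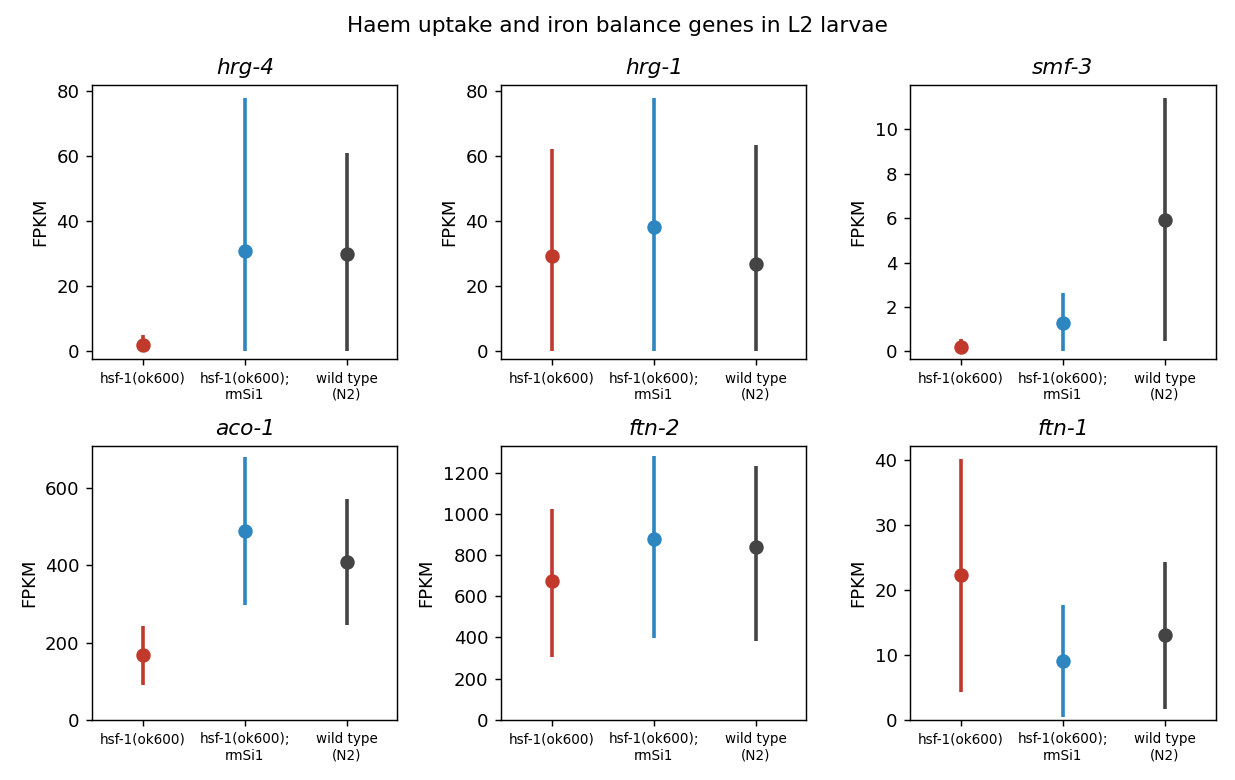
FPKM (vertical axis, a separate linear scale for each gene) of the 6 genes in hsf-1(ok600), in hsf-1(ok600); rmSi1 and in wild type; points are the authors' values from 3 libraries together and bars the deposited intervals. The bar of aco-1 in the mutant ends at 244 FPKM, below those of the transgenic line and of wild type, while the bars of the other 5 genes overlap between all genotypes.

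The haem importer gene hrg-4 (F36H1.5, protein coding, ce10 chromosome IV, 11030139 to 11031085) was listed at 2.05 FPKM (0 to 4.89) in the mutant, 30.9 (0.222 to 77.9) in the transgenic line and 29.8 (0.222 to 60.9) in wild type. The mutant stood apart from both other genotypes in its value, but all 3 intervals overlapped, and the bounds of the wild-type and transgenic values ran from near 0 to more than their double. The mutant value was 14.5-fold lower than that of wild type, a log2 difference of −3.34 on FPKM + 1, with a p of 0.0017 (q = 0.0343 in the authors' deposited table). It ranked 19 from the lowest log2 difference among 12615 tested genes. The transgenic line was 15.1-fold above the mutant and 1.04-fold above wild type, with a log2 difference from wild type of 0.05.

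The relatives hrg-5 and hrg-6 are neighbours of hrg-4 on chromosome IV and were listed at other levels. hrg-6 (F36H1.10, 11031086 to 11033526), a homologue of unsettled function, begins at the base after the hrg-4 locus ends. It was at 8.22 FPKM (0 to 22.1) in the mutant, 20.2 (0 to 57.7) in the transgenic line and 3.41 (0 to 9.21) in wild type (q = 0.559 in the authors' deposited table). hrg-5 (F36H1.9, 11028456 to 11029084) was at 0.0905 and 0.195 FPKM in the mutant and the transgenic line, was listed at 0 in wild type, and was marked as not tested. Whether the difference of hrg-4 between mutant and wild type departs from that of hrg-6 was not tested.

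The endosomal haem transporter gene hrg-1 (R02E12.6, chromosome X, 4008036 to 4022187, a locus that also holds the gene mop-25.1) was listed at 29.3 FPKM (0 to 62.1) in the mutant, 38.2 (0 to 77.8) in the transgenic line and 26.7 (0 to 63.3) in wild type. All lower bounds were 0 and every interval was wider than the value itself, so the 3 genotypes are not separated by these data. The mutant's log2 difference to wild type was 0.13, next to the median of 0.13 over all tested genes (q = 0.955 in the authors' deposited table). Relative to hrg-4, the level of hrg-1 was 14.3-fold in the mutant, 1.23-fold in the transgenic line and 0.896-fold in wild type.

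The iron importer gene smf-3 (Y69A2AR.4, chromosome IV, 2618931 to 2625503) was the least abundant of the 6 in every genotype. It was listed at 0.214 FPKM (0 to 0.547) in the mutant, 1.26 (0 to 2.63) in the transgenic line and 5.94 (0.447 to 11.4) in wild type. The mutant was lowest and wild type highest, and the interval of wild type overlapped that of the mutant by less than 0.1 FPKM. The mutant value was 27.7-fold lower than that of wild type, with a log2 difference of −2.51 on FPKM + 1 and a rank of 79 from the lowest among 12615 genes. The p was 0.00515 and the q 0.0705 in the authors' deposited table, which leaves the gene uncalled. smf-3 passed the filter of 1 FPKM in this comparison only through wild type, so a difference was built into its passing. The same holds for the transgenic line over the mutant, where smf-3 passed only through the transgenic line.

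The transgenic line was 4.71-fold below wild type and 5.89-fold above the mutant in smf-3, so by ratio it lay nearer to wild type. On the log2 scale of FPKM + 1, which compresses low values, it lay nearer to the mutant, with log2 differences of −1.62 to wild type and 0.90 to the mutant, so its place between them is not settled. The paralogue smf-1 (K11G12.4), which encodes a transporter of the same family, was at 4.81 FPKM (0.131 to 9.5) in the mutant, 4.90 (0.0653 to 10.5) in the transgenic line and 4.24 (0 to 9.10) in wild type. smf-2, the other member of the family, stayed under 0.2 FPKM and was marked as not tested.

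The cytosolic aconitase gene aco-1 (ZK455.1, chromosome X, 11339808 to 11343504) was listed at 168 FPKM (91.2 to 244) in the mutant, 489 (298 to 681) in the transgenic line and 409 (245 to 572) in wild type. It is the best measured of the 6, with half-widths of 45.6%, 39.2% and 40.1% of the value, against medians of 64.9%, 67.9% and 68.0% over all genes at 20 FPKM or more, in mutant, transgenic line and wild type. The mutant value was 2.44-fold lower than that of wild type, a log2 difference of −1.28 (q = 0.00249 in the authors' deposited table). That q is the lowest there and is shared by 253 genes. The mutant's upper bound was 0.504 FPKM under the lower bound of wild type, so the intervals just missed each other.

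aco-1 was the only one of the 6 whose deposited intervals did not overlap between mutant and wild type. Among all tested genes, 0.277% had the mutant's interval below that of wild type and 0.65% above. In the transgenic line, aco-1 was 2.92-fold above the mutant, with a gap of 53.4 FPKM between the intervals, and again no other of the 6 was apart. In that comparison 0.681% of 13071 genes had the interval of the transgenic line above that of the mutant and 0.689% below. Between transgenic line and wild type 0 of the 6 were apart, where 0.127% of 12563 genes lay below and 0.557% above. Both comparisons with the transgenic line have no test, since no p-values for them were used here, and the 3 comparisons share their genotypes.

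The mitochondrial aconitase gene aco-2 (F54H12.1), which makes the enzyme of the TCA cycle, was at 357 FPKM (214 to 501) in the mutant, 418 (253 to 584) in the transgenic line and 286 (169 to 404) in wild type (q = 0.396 in the authors' deposited table). Its locus also holds the gene C06G4.4.

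The ferritin gene ftn-2 (D1037.3, chromosome I, 3680181 to 3680947) was the most abundant of the 6, at a percentile of 98.8 or higher among all listed genes in each genotype. It was listed at 674 FPKM (303 to 1021) in the mutant, 880 (396 to 1282) in the transgenic line and 840 (381 to 1232) in wild type, and the intervals overlapped widely. The mutant's log2 difference to wild type was −0.32 (q = 0.428 in the authors' deposited table).

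The second ferritin gene, ftn-1 (C54F6.14, chromosome V, 7545952 to 7547993), which is made in the intestine and known to be induced by iron, was listed at 22.2 FPKM (4.21 to 40.2) in the mutant, 9.10 (0.486 to 17.6) in the transgenic line and 13.0 (1.62 to 24.3) in wild type. It was the only one of the 6 with its lowest value in the transgenic line and its highest in the mutant. The mutant was 1.71-fold above wild type, a log2 difference of 0.73 (q = 0.506 in the authors' deposited table), and 22.2% of tested genes had a higher log2 difference. The transgenic line was 2.44-fold below the mutant, with overlapping intervals. The ratio of ftn-2 to ftn-1 was 30.3 in the mutant, 96.7 in the transgenic line and 64.6 in wild type. The handling of reads that match both paralogues is not described in the labels.

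Ordered by level per length, ftn-2 came first and aco-1 second in every genotype, and smf-3 last. In the mutant, ftn-2 exceeded aco-1 4.02-fold and their intervals did not overlap. In the transgenic line and in wild type the excess was 1.80-fold and 2.06-fold, and the intervals overlapped. aco-1 stood above the gene after it without overlap in all genotypes. The middle order changed: hrg-1, ftn-1, hrg-4 in the mutant, hrg-1, hrg-4, ftn-1 in the transgenic line, and hrg-4, hrg-1, ftn-1 in wild type. All neighbours from the third gene down overlapped in their intervals, so that order is not resolved.

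**Figure D2:**
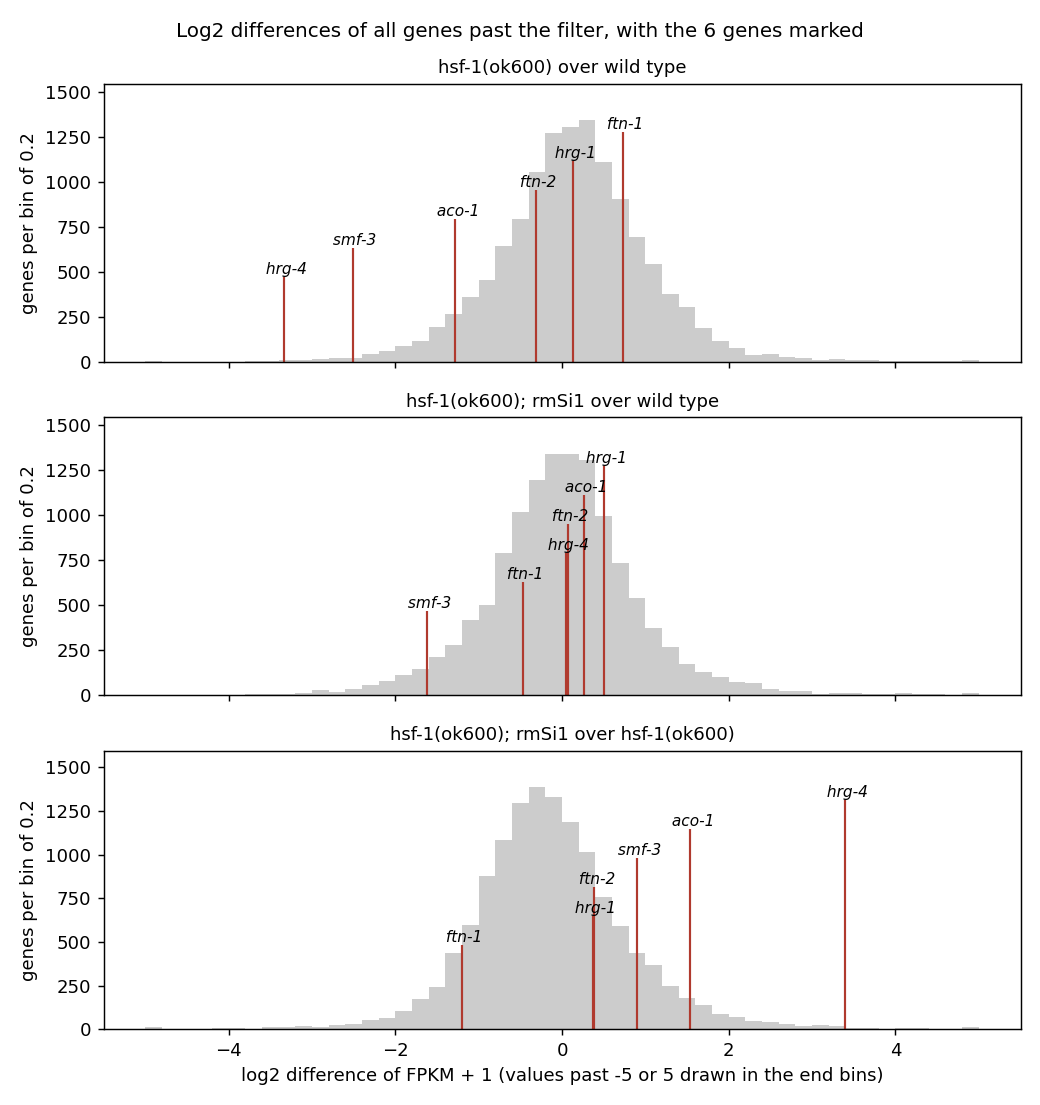
Histograms of the log2 difference of FPKM + 1 (horizontal axis) over all genes that passed the filter, in bins of 0.2 (genes per bin on the vertical axis), for hsf-1(ok600) over wild type, hsf-1(ok600); rmSi1 over wild type and hsf-1(ok600); rmSi1 over hsf-1(ok600); red lines mark the 6 genes, and their heights carry no value. hrg-4 and smf-3 stand in the low tail of the first comparison at −3.34 and −2.51, smf-3 alone of the 6 is below −1 in the second, and hrg-4 is at 3.39 in the third.

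Against wild type, the 6 genes had a median log2 difference of −0.80 in the mutant, beside 0.13 over all tested genes, and of 0.06 in the transgenic line, beside 0.00. For the transgenic line over the mutant it was 0.64, beside −0.19 over all genes past the filter. The 6 were chosen with these levels known, so nothing is read from these medians either. All 6 passed the filter of 1 FPKM in every comparison, but smf-3 passed both comparisons with the mutant only through the other genotype. Several of these genes are known to work in the intestine, and in RNA of whole animals fewer intestinal cells and less RNA per cell cannot be told apart. Of 7 intestinal marker genes, none was listed at 0, and their summed level was 2032 FPKM in the mutant, 3885 in the transgenic line and 3351 in wild type. In the mutant 5 of the 7 were listed lower than in wild type and 2 higher, and 1 fell in the authors' deposited table, the protease gene asp-1, at 852 FPKM in the mutant, 2203 in the transgenic line and 2003 in wild type. The intestinal GATA factor gene elt-2 was at 22.5, 11.1 and 17.9 FPKM in the same order (q = 0.699 in the authors' deposited table). Most of the difference in the sum between mutant and wild type lay in asp-1. Of the other markers, act-5 was at 904 FPKM in the mutant and 1127 in wild type, and elt-7 at 14.4 and 22.3. The markers pept-1 and ges-1 were at 45.4 and 50.5 and at 5.33 and 5.36 FPKM. Higher in the mutant was ifb-2, at 188 and 125 FPKM. The part of the intestinal RNA level in the differences of hrg-4, smf-3 and aco-1 was not tested.

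Of 10 genes on the list of haem transport, 8 were tested. The authors' deposited table has 1 of these falling (hrg-4) and 0 rising by q, beside 2.9% and 2.93% of all tested genes. Without hrg-4 and hrg-1, 6 were tested, of which 0 fell and 0 rose. At an unadjusted p under 0.05 the counts over the 8 were 1 lower and 0 higher, beside the 8.99% and 10.5% of all tested genes. The median log2 difference of the 8 was −0.25, beside 0.13 over all tested genes. The list's median was −1.1 for genes that share no locus and −0.01 at 5 FPKM or more. The haem exporter gene mrp-5 (F14F4.3) was at 42.2 FPKM (20.7 to 63.8) in the mutant, 56.6 (27.4 to 85.8) in the transgenic line and 39.2 (18.0 to 60.5) in wild type. hrg-7 (C15C8.3), whose secreted aspartic protease acts as a haem signal between tissues, was at 108 FPKM (40.6 to 174) in the mutant, 173 (82.1 to 264) in the transgenic line and 152 (65.2 to 239) in wild type. These are the most abundant genes of the list, and their intervals overlapped between all genotypes. The locus of hrg-7 also holds C15C8.7, and that of hrg-3 also holds F58E6.11.

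The remaining haem genes had lower levels. hrg-2 (K01D12.14, named cdr-5 in the files), for a hypodermal membrane protein of haem use, was at 1.25 FPKM (0 to 2.43) in the mutant, 0.729 (0 to 1.74) in the transgenic line and 4.44 (0.348 to 8.46) in wild type (q = 0.293 in the authors' deposited table). hrg-10 (Y80D3A.9), a paralogue of hrg-9, was at 2.60 FPKM (0 to 5.14) in the mutant, 14.7 (1.13 to 28.2) in the transgenic line and 6.71 (0.752 to 12.7) in wild type (q = 0.383 in the authors' deposited table). Both were listed lower in the mutant than in wild type, with overlapping intervals. hrg-3 (F58E6.7), for a haem carrier that mothers secrete to their embryos, was at 5.05, 4.55 and 5.07 FPKM in mutant, transgenic line and wild type. hrg-9 (R186.1), a relative of human TANGO2 with a part in haem traffic, was at 1.43, 1.21 and 1.09 FPKM in the same order and was not tested.

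Of 16 genes on the list of iron import, export, storage and regulation, 13 were tested. By the q of the authors' deposited table, aco-1, mxl-3 and vhl-1 fell (3) and rhy-1 and egl-9 rose (2). Over all tested genes, 2.9% fell and 2.93% rose by q. At an unadjusted p under 0.05, 4 of the 13 were lower and 2 higher, beside 8.99% and 10.5% of all tested genes. The median log2 difference of the 13 was 0.15, and −0.06 when an FPKM of at least 5 was required. The list holds 4 of the 6 genes, which were chosen with their levels known. Without these, 9 were tested, of which 2 fell and 2 rose, with a median log2 difference of 0.20. mxl-3 (F46G10.6), for a bHLH transcription factor of the Max family with a part in fasting and lipid control, was at 206 FPKM (81.3 to 331) in the mutant, 473 (231 to 716) in the transgenic line and 470 (234 to 707) in wild type. It fell 2.28-fold in the mutant (q = 0.00249 in the authors' deposited table). The bHLH gene mdl-1 (R03E9.1) was at 285, 297 and 248 FPKM in the same order and did not pass.

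The other 3 called genes control the hypoxia factor HIF-1. rhy-1 (W07A12.7), for a membrane protein that restrains HIF-1, was at 104 FPKM (47.3 to 160) in the mutant, 6.25 (0.408 to 12.1) in the transgenic line and 9.71 (0.263 to 19.4) in wild type, and rose 10.7-fold in the mutant (q = 0.00249 in the authors' deposited table). Its locus is shared with the gene W07A12.8. egl-9 (F22E12.4), for the prolyl hydroxylase that marks HIF-1 for breakdown, was at 89.8 FPKM (40.5 to 139) in the mutant, 55.5 (15.4 to 95.7) in the transgenic line and 27.8 (2.56 to 64.3) in wild type (q = 0.0116 in the authors' deposited table). Both rose in the mutant, and both are known HIF-1 targets as well as its regulators.

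vhl-1 (F08G12.4), for the ubiquitin ligase subunit that acts after EGL-9, was at 8.93 FPKM (1.07 to 16.7) in the mutant, 5.64 (0.153 to 11) in the transgenic line and 43.9 (9.35 to 78.5) in wild type, and fell 4.92-fold in the mutant (q = 0.0166 in the authors' deposited table). Its transgenic value stood beside that of the mutant. hif-1 itself (F38A6.3) was at 281 FPKM (156 to 406) in the mutant, 366 (198 to 533) in the transgenic line and 235 (122 to 347) in wild type (q = 0.534 in the authors' deposited table). The ferroportin gene fpn-1.1 (Y37E3.16), for iron export, was at 9.17, 11.9 and 16.0 FPKM in mutant, transgenic line and wild type, all with a lower bound of 0, in a locus shared with npp-13 and Y37E3.19. fpn-1.2 stayed under 0.5 FPKM and fpn-1.3 was listed at 0 throughout.

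**Figure D3:**
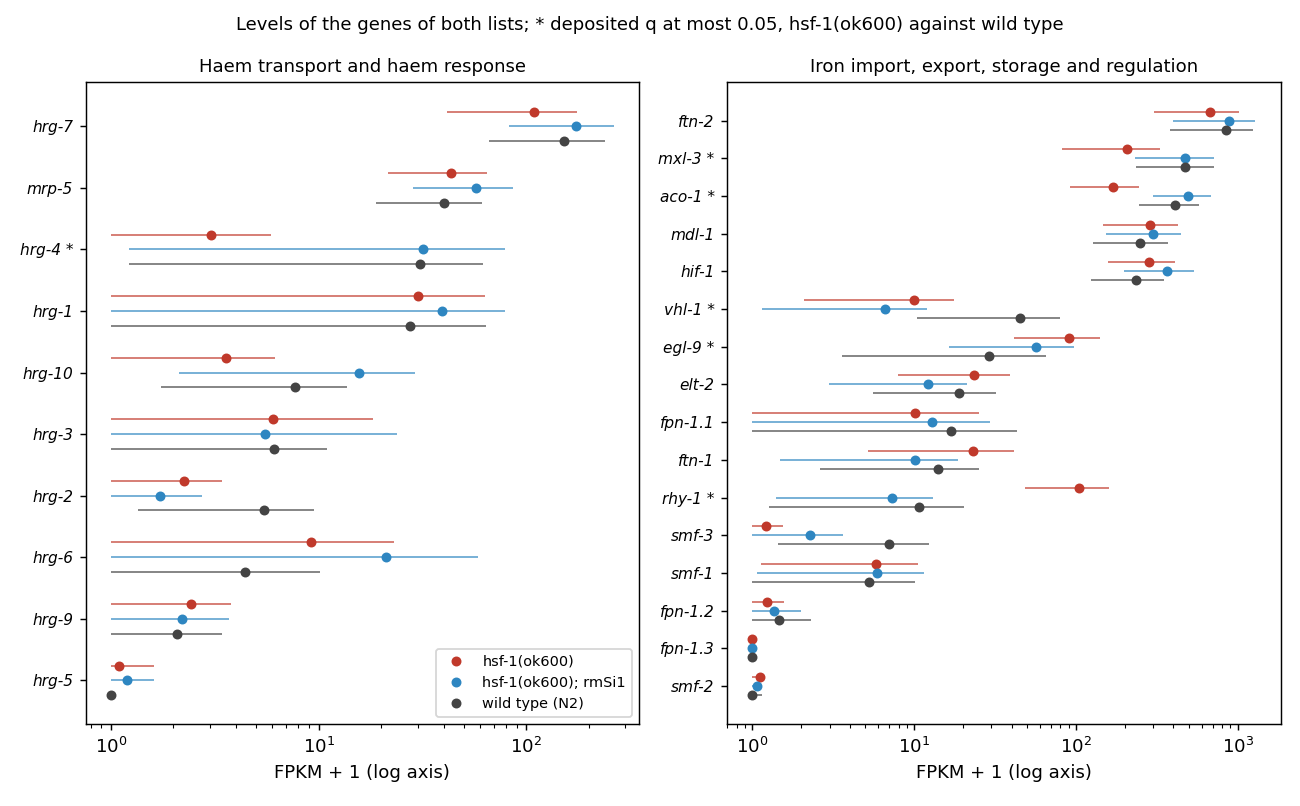
FPKM + 1 on a log axis for the genes of the haem list (left) and the iron list (right), each with hsf-1(ok600), hsf-1(ok600); rmSi1 and wild type from top to bottom; points are the authors' values from 3 libraries together, bars the deposited intervals, and a star marks a deposited q of at most 0.05 for the mutant against wild type. The stars fall on hrg-4 at the left and on aco-1, mxl-3, vhl-1, egl-9 and rhy-1 at the right, and the bar of rhy-1 in the mutant, 47.3 to 160 FPKM, clears both others.

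Iron is used in the mitochondrion to build iron-sulphur clusters. Of 12 genes on that list 9 were found and tested. The authors' deposited table has 1 falling by q, the mitochondrial Hsp70 gene hsp-6, and 0 rising, beside 2.9% and 2.93% of all tested genes. The levels of hsp-6 were 204 FPKM (118 to 290) in the mutant, 662 (424 to 900) in the transgenic line and 513 (324 to 702) in wild type. hsp-6 is a general chaperone of the matrix and not one of iron alone. At an unadjusted p under 0.05 in the authors' deposited table the counts were likewise 1 lower and 0 higher, beside 8.99% and 10.5% of all tested genes. The 9 genes had a median log2 difference of −0.18, beside 0.13 over all tested genes. The frataxin gene frh-1 (F59G1.7) was at 3.69, 2.39 and 1.27 FPKM in mutant, transgenic line and wild type. The scaffold gene iscu-1 (Y45F10D.4), in a locus shared with lact-9, was at 31.7, 87.0 and 53.1 FPKM in the same order (q = 0.533 in the authors' deposited table).

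Genes with the most similar pattern were sought by the distance between their pair of log2 differences from wild type and that of each of the 6, over 3 genotypes and 7545 genes. For aco-1 these were C54E10.6 and agns-1 (D2045.8), at distances of 0.020 and 0.051, and 7 genes lay within 0.1. C54E10.6 was at 17.5 FPKM in the mutant, 52.0 in the transgenic line and 43.9 in wild type. For smf-3 they were gtnt-31 (F54D10.8) and mnm-2 (C10A4.8), at 0.130 and 0.165, with none within 0.1, and mnm-2 was at 6.72, 14.6 and 48.3 FPKM in the same order of genotypes. For hrg-4 the nearest, Y94H6A.10 and C44B7.7, were at 0.560 and 0.574. hrg-1, ftn-2 and ftn-1 had 57, 49 and 20 genes within 0.1, led by szy-2 and iglr-1 for hrg-1, swsn-9 and gldi-1 for ftn-2, and ZK131.11 and R10E4.11 for ftn-1. Over 3 genotypes that share a wild type, such likeness is a description only.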

How the data were processed

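RNA-seq libraries of whole L2 larvae were mapped to ce10 with TopHat2 and quantified with Cuffdiff by the authors, per the submitters' processing notes (versions, annotation, filters and strand setting not given in the sources used here). The FPKM values and bounds were deposited by the authors as 1 value per gene and genotype. For hsf-1(ok600) against wild type the authors also deposited p-values and q-values; nothing in the labels says that libraries are separate cultures, so these measure the spread between libraries, which may be technical. The test table's FPKM run 1.04-fold higher at the median, and levels here are from the table of 3 genotypes.

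Genes were matched by name in the files, and 10 of the other listed genes by the current RefSeq symbol (WBcel235), which 19879 of 20389 sequence names have. mfn-1, isca-1 and isca-2 found no match. Locus starts counted from 0 in 2211 of 2427 gene models compared with Ensembl release 115, so 1 was added. Log2 differences used a pseudocount of 1 FPKM, which understates changes of low genes, and folds are ratios of FPKM as deposited. For the mutant against wild type, the tested genes are those the authors' deposited table marks as tested, with an FPKM of at least 1 in either group, and a gene was called at a q of at most 0.05; the other comparisons used that FPKM filter without the authors' test. Functions were checked on simulated tables (Python 3.11.15, pandas 2.3.3). The 6 genes and the lists were chosen with earlier results of these data known. Named are the 6, genes of the haem and iron lists at 1 FPKM or more, called genes of the other lists, and the 2 genes nearest in pattern to each of the 6 among genes at 5 FPKM or more in a locus of their own. frh-1, iscu-1, aco-2, smf-2, hrg-5, fpn-1.2, fpn-1.3, glb-1, glb-17, glb-19, glb-22, glb-25, cdf-1 and mtl-1 were named after their values were seen. Alternatives were other pseudocounts, filters, thresholds and centring.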

Additional observations from a re-analysis of the deposited data

How the results depend on the processing

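With a q of at most 0.01, 1 of the 6 genes (aco-1) was lower in the mutant than in wild type in place of 2, and the same count, 1, came from intervals that do not overlap. An absolute log2 difference of at least 1 in place of intervals gave 1 gene of the transgenic line below wild type (smf-3), 1 below the mutant (ftn-1) and 2 above the mutant (hrg-4 and aco-1), in place of 0, 0 and 1. Among iron genes in a locus of their own, 1 rose (egl-9) in place of 2. Pseudocounts, centring and the test table's FPKM kept the sign of all 60 recomputed log2 differences of the 6 genes; smf-3 moved most, to −4.26 and −4.73 in the mutant against wild type and to 2.11 and 2.5 in the transgenic line against the mutant, at pseudocounts of 0.1 and 0.01. Of 25 recomputed list medians 1 changed sign, that of the iron list (−0.06 at 5 FPKM or more), and that of the haem list was −1.1 for genes that share no locus. The depth is unknown, which limits what low genes such as smf-3 can show. A planned description of promoter motifs was not run. No paired analysis was possible because the files hold 1 combined value per genotype, and for the same reason no replicate could be left out.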

Other observations

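Globins bind haem, and their genes form a large family in C. elegans, many of them expressed in neurons. Of 33 globin genes, 31 were tested. The authors' deposited table has 1 of these rising (glb-11) and 0 falling by q, beside 2.93% and 2.9% of all tested genes. At an unadjusted p under 0.05, 2 of the 31 were higher and 0 lower, beside 10.5% and 8.99% of all tested genes. Their median log2 difference, mutant over wild type, was 0.42, beside 0.13 over all tested genes, with 21 genes higher and 10 lower, and it was 0.14 when an FPKM of at least 5 was required. glb-11 (C36E8.2) was at 40.5 FPKM (12.4 to 68.5) in the mutant, 14.2 (2.16 to 26.1) in the transgenic line and 11.3 (1.3 to 21.3) in wild type (q = 0.0409 in the authors' deposited table). glb-1 (ZK637.13), the most abundant globin gene in the mutant, was at 54.2 FPKM (7.48 to 101) in the mutant, 15.3 (0 to 30.6) in the transgenic line and 32.2 (1.43 to 66.0) in wild type. glb-25 (T06A1.4) was at 35.8, 16.6 and 15.4 FPKM and glb-17 (F49E2.4) at 17.7, 6.0 and 2.94 FPKM in the same order, and neither passed. Among the 10 listed lower in the mutant, glb-22 (R11H6.3) was at 8.59, 4.95 and 16.1 FPKM in that order. glb-19 (F56C4.3), also lower, was at 4.73, 2.64 and 10.6 FPKM. The summed level of 5 neuronal marker genes was 1384 FPKM in the mutant, 943 in the transgenic line and 839 in wild type, and 2 of them, snb-1 and egl-3, rose in the mutant in the authors' deposited table. The part of the neuronal RNA level in the globin values was not tested.

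Of 8 genes for the handling of zinc, copper and other metals, all 8 were tested. By q, 0 were called in either direction in the authors' deposited table, where 2.9% of all tested genes fell and 2.93% rose. At an unadjusted p under 0.05, 0 were lower and 1 higher, beside 8.99% and 10.5% of all tested genes. Of the 8 metal genes 7 were listed higher in the mutant than in wild type. Their median log2 difference was 0.28, beside 0.13 over all tested genes. The zinc transporter gene cdf-1 (C15B12.7) was at 29.4 FPKM (9.19 to 49.7) in the mutant, 26.8 (6.88 to 46.7) in the transgenic line and 15.1 (2.39 to 27.8) in wild type. The metallothionein gene mtl-1 (K11G9.6) was at 4.13 FPKM (0 to 8.23) in the mutant, 0.915 (0 to 1.70) in the transgenic line and 1.44 (0 to 2.84) in wild type.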
